A study of Mus musculus with 16 samples.

Results

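The genes described here are 10 of the 25054 genes in the count table: the transcription factors *Snai1*, *Snai2*, *Twist1*, *Twist2*, *Zeb1*, *Zeb2* and *Prrx1*, the cadherins *Cdh2* and *Cdh11*, and the intermediate filament gene *Vim*. They were picked by name as regulators and adhesion or cytoskeletal genes of the epithelial-mesenchymal transition (EMT), and every one of the 10 was in the table and passed the filter on low counts. RNA sequencing was performed on 16 mouse osteosarcomas, 8 labeled KO and 8 labeled WT for *Arid1a*, a subunit gene of the SWI/SNF chromatin remodeling complex. WT mice were OsxCreERT2+/-;p53fl/fl;Rb1fl/fl and KO mice carried Arid1afl/fl in addition, so that "WT" tumors also had floxed *Trp53* and *Rb1*. In both groups the Cre was driven by the Osterix (*Sp7*) promoter of osteoblast lineage cells and was induced with tamoxifen (400 μg per gram at 1 month of age), and the mice were older than 6 months and of both sexes. The 8 KO tumors came from 8 mice (Massa, Medusa, Montana, Ohio, Prince, Grilka, Zelda and Oregon) and their sites are not in the labels. The 8 WT tumors came from 4 mice: 4 from N42 (R pelvis, R femur, L limb, L shoulder), 2 from N43 (spine, pelvis), 1 from N215 (R hind limb) and 1 from N25, which is labeled lung.

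The Snail, Twist and Zeb proteins are transcription factors that repress epithelial genes such as the E-cadherin gene *Cdh1* and favor the mesenchymal state. Epithelial tumors switch them on when they become motile, but an osteosarcoma arises from mesenchymal cells, in which these factors, vimentin and the mesenchymal cadherins are part of the normal program. *Prrx1* and *Twist1* are also patterning factors of limb and skull mesenchyme, *Cdh11* encodes osteoblast cadherin, and *Cdh2* encodes N-cadherin, which osteoblasts and nerve and muscle cells share. In bulk tissue, fewer cells of a type and less RNA per cell cannot be told apart.

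Promoter sequence upstream of the first annotated base was read from RefSeq windows on GRCm38.p6, which were found for 6 of the 10 genes. The 4 factors shown each had a single window that reached upstream of the gene, and they were not picked by their differences. *Snai1* (chr2:167537945-167538194, plus strand) and *Prrx1* (chr1:163313711-163313900, minus strand, shortened to 190 bases to stay outside the gene) are shown with the paralogs *Twist1* (chr12:33957421-33957670, plus strand) and *Twist2* (chr1:91801211-91801460, plus strand). Capitals mark CAGGTG or its reverse complement CACCTG, the E-box that Snail and Zeb proteins are known to bind, and TATAA or its reverse complement TTATA. The sequences run 5′ to 3′ on the strand of the gene.
Snai1: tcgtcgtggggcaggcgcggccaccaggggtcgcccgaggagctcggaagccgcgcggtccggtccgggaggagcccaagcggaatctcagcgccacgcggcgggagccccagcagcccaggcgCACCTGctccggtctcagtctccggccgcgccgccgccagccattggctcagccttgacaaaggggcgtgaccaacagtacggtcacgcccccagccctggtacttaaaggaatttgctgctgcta
Twist1: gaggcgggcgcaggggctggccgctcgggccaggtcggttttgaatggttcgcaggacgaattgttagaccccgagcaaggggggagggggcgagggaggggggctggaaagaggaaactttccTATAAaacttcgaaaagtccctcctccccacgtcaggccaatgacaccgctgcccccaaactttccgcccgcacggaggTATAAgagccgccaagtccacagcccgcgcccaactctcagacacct
Twist2: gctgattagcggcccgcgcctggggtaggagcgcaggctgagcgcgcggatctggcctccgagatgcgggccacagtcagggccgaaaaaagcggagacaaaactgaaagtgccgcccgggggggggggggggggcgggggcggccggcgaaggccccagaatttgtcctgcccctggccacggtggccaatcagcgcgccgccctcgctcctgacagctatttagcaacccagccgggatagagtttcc
Prrx1: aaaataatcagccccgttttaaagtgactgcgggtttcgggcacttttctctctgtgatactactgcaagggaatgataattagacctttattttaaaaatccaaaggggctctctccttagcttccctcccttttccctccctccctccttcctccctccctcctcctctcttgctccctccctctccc
The E-box letters were found once, in *Snai1*, and 17.2% of all 32851 RefSeq windows of 250 bases held them. TATAA was found in *Twist1*, at 2 places that do not overlap, and 22.8% of all windows held TATAA or TTATA. Neither run of letters was found in the *Twist2* and *Prrx1* windows.

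Levels are given as CPM, the count of a gene scaled to a common library size after TMM normalization, and differences as log2 fold changes of KO over WT with their standard error (SE) and Benjamini-Hochberg adjusted p from edgeR's quasi-likelihood test across 15413 genes. Total counts ranged from 1109487 to 15059640 in KO and from 7806160 to 16962329 in WT libraries, and the shallowest, Massa and Grilka, had 72.8% and 70.3% of their counts in 20 genes. The labeled tissue was checked against 12 osteoblast genes, whose summed level was at least 1228 CPM in 10 tumors and at most 512 CPM in 6: the KO tumors Massa (243), Montana (72.2), Prince (238) and Oregon (385) and the WT tumors N215 (512) and N25 (311). In 5 of these 6, genes of another tissue were high: 8 lung genes summed to 11271 CPM in Massa and 28781 in N25 (at most 17.3 elsewhere), 12 skeletal muscle genes to 112392 in Montana and 168961 in Oregon (at most 9055 elsewhere) and 7 salivary gland genes to 22690 in Prince (at most 186.6 elsewhere). In N215 the lung and liver genes were not above the range of the other WT tumors. Its skeletal muscle genes summed to 6595 CPM, below only N43 pelvis (9055) in WT, and its salivary gland genes to 20.1 CPM. Its 8 epithelial genes summed to 27.6 CPM, below N25 (719) but above the other WT tumors (at most 3.46). Zelda, which was not low in osteoblast genes, had 1366 CPM of 8 liver genes. Whole-gene *Arid1a* was 187 ± 57.5 CPM in KO and 167 ± 31.8 CPM in WT tumors (SD, n = 8 each; log2 fold change 0.16 ± 0.22, adjusted p = 0.715), so that the counts over the whole gene do not check the labels. *Trp53* and *Rb1*, floxed in both groups, differed by 0.55 (adjusted p = 0.183) and 0.22 (adjusted p = 0.734).

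None of the 10 genes passed the threshold of 0.05 between KO and WT tumors, in a comparison in which 618 of 15413 genes did (4.01%). In sign, 7 were lower and 3 higher in KO tumors (44.1% of all genes were lower). *Snai1*, *Twist2*, *Prrx1* and *Cdh11* reached an unadjusted p under 0.05, each with the lower level in KO, against 9.75% of all genes lower at that p and 23% in either direction. No gene had KO and WT values that did not overlap (64 of 15413 genes, 0.415%). The p-values treat tumors of one mouse as separate samples. When counts were summed per mouse (8 KO and 4 WT mice), 10 of 16007 genes passed (0.0625%) and none of the 10, of which 1 (*Twist2*) was lower at an unadjusted p under 0.05 (4.01% of all genes). DESeq2, which called 12.5% of genes (7.76% higher and 4.77% lower in KO), called 1 of them lower, *Prrx1*.

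**Figure D1:**
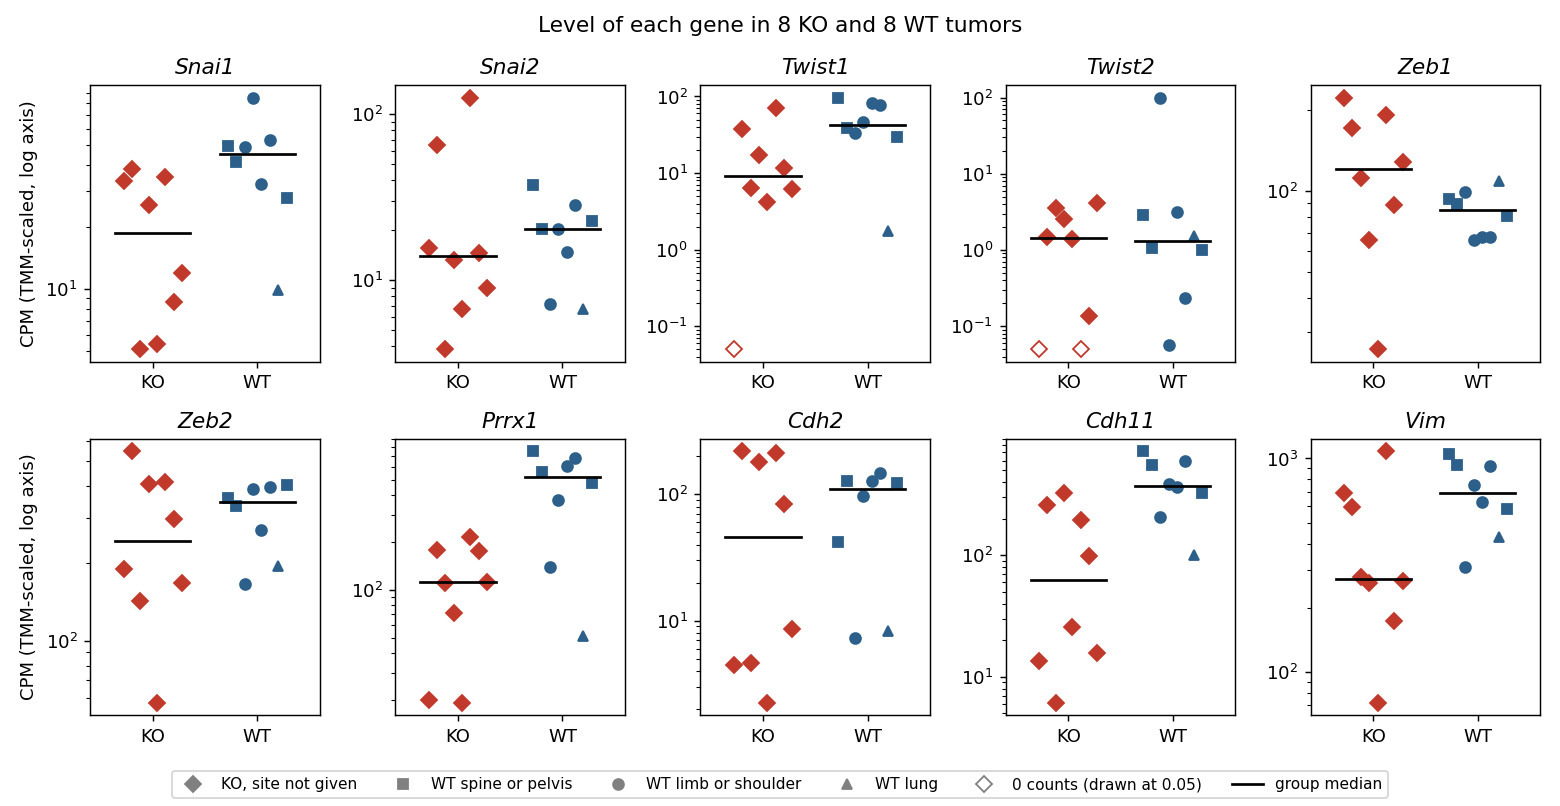
CPM of each gene (log axis) in the 8 KO and the 8 WT tumors, 1 symbol a tumor, with the site class of the WT tumors as symbol shape and the group median as a line; open symbols at 0.05 stand for 0 counts. *Prrx1*, *Cdh11* and *Snai1* lie below the WT median in all 8 KO tumors, *Cdh2* splits into a high and a low set in both groups, and *Twist2* stands at 100.05 CPM in 1 WT tumor.

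*Snai1* (chromosome 2, 167538195 to 167542814) encodes Snail, the founding zinc finger repressor of E-cadherin. Its level in KO tumors was 33.5 CPM in Massa, 38.2 in Medusa, 5.10 in Montana, 25.6 in Ohio, 5.395 in Prince, 34.9 in Grilka, 8.61 in Zelda and 12.02 in Oregon. In WT tumors it was 49.5 (N43 spine), 41.5 (N42 R pelvis), 48.8 (N215), 85.2 (N42 R femur), 32.4 (N42 L limb), 53.2 (N42 L shoulder), 9.94 (N25 lung) and 27.7 CPM (N43 pelvis). All 8 KO tumors were below the WT median of 45.1 CPM, but the groups overlapped. N25 lay below 5 KO tumors, and N43 pelvis and N42 L limb lay below Massa, Medusa and Grilka. The log2 fold change was −1.13 ± 0.48 and did not pass the threshold (adjusted p = 0.169).

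*Snai2* (chromosome 16, 14705852 to 14709385) encodes Slug, the Snail relative used by neural crest and osteoblast precursors. KO tumors ranged from 3.83 CPM in Montana to 65.5 in Medusa and 126 in Grilka, with a median of 13.9, while WT tumors ranged from 6.65 in N25 to 37.5 in N43 spine, with a median of 20.2 CPM. The KO group thus held both the highest and the lowest values. The fitted log2 fold change, 0.66 ± 0.64 (adjusted p = 0.572), follows the mean CPM and rested on Grilka, a shallow library with 94 *Snai2* counts: without it the value was −0.11.

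*Twist1* (chromosome 12, 33957671 to 33959829) encodes a basic helix-loop-helix factor of skull and limb mesenchyme that holds back osteoblast maturation. In KO tumors it was 0 in Massa, 37.4 CPM in Medusa, 6.38 in Montana, 17.3 in Ohio, 4.15 in Prince, 71.2 in Grilka, 11.8 in Zelda and 6.15 in Oregon. In WT tumors it was 97.0 (N43 spine), 39.1 (N42 R pelvis), 33.6 (N215), 45.9 (N42 R femur), 83.4 (N42 L limb), 77.8 (N42 L shoulder), 1.74 (N25 lung) and 29.98 CPM (N43 pelvis). The 7 WT bone tumors were thus all above 6 of the 8 KO tumors, and the tumor labeled lung was near the bottom. The 0 of Massa allows up to 6.69 CPM at its depth (3 counts of the library, for counting error only), which is above the values of Montana, Prince and Oregon. As a log2 fold change the difference was −1.43 ± 0.72 (adjusted p = 0.245).

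*Twist2* (chromosome 1, 91801461 to 91848028), the paralog expressed in dermal and other connective tissue, was scarce everywhere except in 1 tumor. It was 100.05 CPM (882 counts) in the WT tumor N215 and at most 4.19 CPM in the other 15 tumors, with 0 counts in Massa and Grilka, which allow up to 6.69 and 4.03 CPM. The fitted log2 fold change of −2.86 ± 1.25 (adjusted p = 0.182) came from N215, since without it the value was 0.44. In the same library *Twist1* was 33.6 CPM, so that N215 was the only mouse of 12 in which *Twist2* counts exceeded *Twist1* counts. The annotated antisense gene *Gm29100* shares 1477 exon bases with *Twist2* and had 50 counts in N215, and as the strand of the libraries is not stated, reads of the pair cannot be told apart.

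*Zeb1* (chromosome 18, 5591860 to 5775467) encodes a zinc finger and homeodomain repressor that is expressed in most mesenchymal cells. WT tumors held it in a narrow range, 65.9 to 109 CPM with a median of 85.4. KO tumors spread more widely, from 25.8 CPM in Prince and 65.8 in Ohio to 192 in Grilka and 223 in Massa, with a median of 120.4. On the TMM scale 5 KO tumors were above every WT tumor and 2 were below every WT tumor. A lower TMM factor gives a higher CPM. The factors were 0.41 to 0.97 in those 5, 1.37 in Ohio, 1.08 in Prince and 1.15 to 1.44 in WT libraries. The log2 fold change was 0.57 ± 0.33 (adjusted p = 0.309) and turned to −0.14 when libraries were scaled by total counts alone, which lowered the median of all genes by 0.43.

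*Zeb2* (chromosome 2, 44983632 to 45117395), its paralog, is also expressed by macrophages and nerve cells. KO tumors ranged from 57.3 CPM in Prince to 547 in Medusa and WT tumors from 166 in N215 to 403 in N43 pelvis. In KO tumors 3 values were above all WT values and 2 below. As a log2 fold change the difference was −0.18 ± 0.38 (adjusted p = 0.822) and turned to 0.086 when counts were summed per mouse. *Zeb1* and *Zeb2* overlap antisense genes (*Gm10125* over 198 exon bases, *Zeb2os* over 653), which had at most 185 and 74 counts in a library, against up to 1849 and 8033 for the Zeb genes.

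*Prrx1* (chromosome 1, 163245119 to 163313710), a homeobox gene of limb bud and skull mesenchyme, showed the smallest adjusted p of the 10. In KO tumors it was 20.1 CPM in Massa, 179.9 in Medusa, 110.7 in Montana, 71.9 in Ohio, 19.3 in Prince, 218 in Grilka, 177 in Zelda and 113 in Oregon. In WT tumors it was 756 (N43 spine), 559 (N42 R pelvis), 139.8 (N215), 372 (N42 R femur), 609 (N42 L limb), 687 (N42 L shoulder), 51.5 (N25 lung) and 475 CPM (N43 pelvis). The 6 tumors of N42 and N43 were all above every KO tumor, whereas N215 and N25 lay among them. The log2 fold change was −2.002 ± 0.56, with an adjusted p of 0.0531, just outside the threshold.

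The call on *Prrx1* changed with the tool and the libraries. DESeq2 gave −1.95 (adjusted p = 0.00718), and edgeR passed the threshold without KO Zelda (adjusted p = 0.0386), without WT N215 (0.0389) or without WT N25 (0.0234). In these fits more genes passed than the 618 of 15413 with all tumors: 1348 of 15829, 923 of 15829 and 903 of 15457. Without both N215 and N25, *Prrx1* was the only 1 of the 10 to pass, where 9.46% of all genes did. With total counts alone it also passed (−2.44, adjusted p = 0.0336, 3.68% of all genes). With counts summed per mouse the value was −1.51 (adjusted p = 0.632), and without the 4 tumors of N42 it was −1.60 (adjusted p = 0.610). Limma-voom with the mouse as random effect gave −1.42 (adjusted p = 0.576). Leaving out the 6 tumors low in osteoblast genes left 4 KO tumors (71.9 to 218 CPM) and 6 WT tumors of 2 mice (372 to 756 CPM). There *Prrx1* was lower in KO by edgeR (−1.84 ± 0.35, adjusted p = 0.00757) and was the only 1 of the 10 genes past the threshold, at which 15.7% of 17017 genes passed (7.36% lower). The WT side of that comparison rests on N42 and N43 alone.

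**Figure D2:**
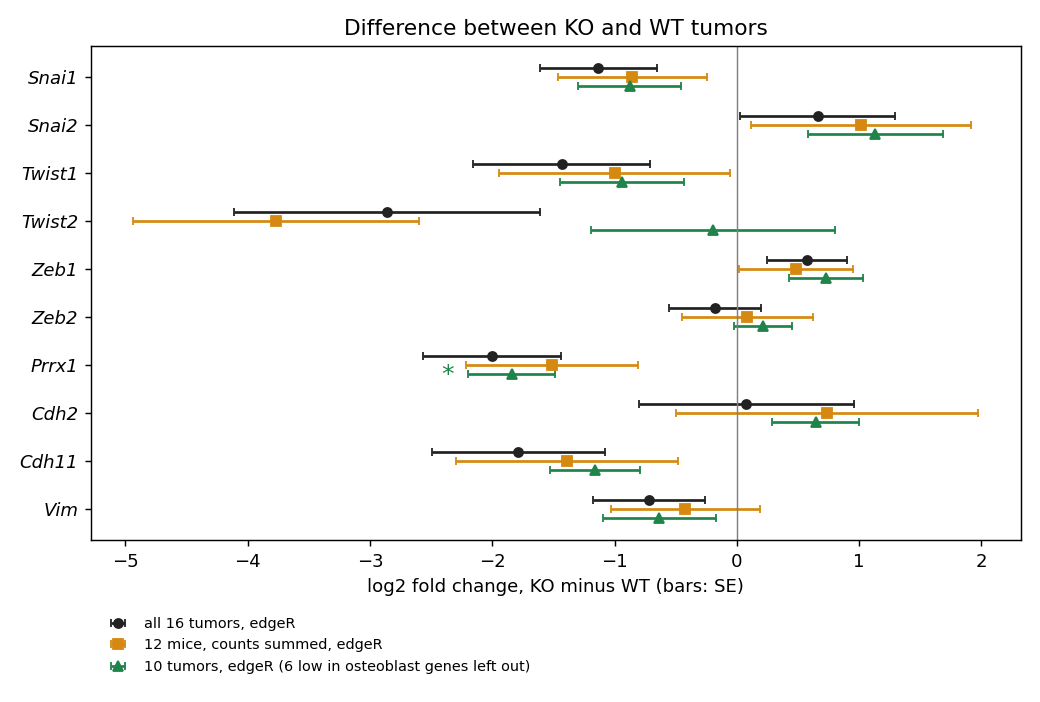
Log2 fold change of KO over WT for each gene with its SE, from edgeR in 3 settings: all 16 tumors, counts summed per mouse, and the 10 tumors left without the 6 low in osteoblast genes; an asterisk marks an adjusted p under 0.05. *Prrx1* lies between −2.002 and −1.51 in the 3 settings and passes in the last, and *Twist2* moves from −2.86 to −0.19 when N215 is among the tumors left out.

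*Cdh11* (chromosome 8, 102632095 to 102785642), the cadherin of osteoblasts and their precursors, ranged 53.5-fold over the KO tumors. There it was 13.4 CPM in Massa, 257 in Medusa, 6.12 in Montana, 327 in Ohio, 25.5 in Prince, 193 in Grilka, 99.1 in Zelda and 15.7 in Oregon. In WT tumors it was 717 (N43 spine), 556 (N42 R pelvis), 205 (N215), 382 (N42 R femur), 363 (N42 L limb), 593 (N42 L shoulder), 99.5 (N25 lung) and 323 CPM (N43 pelvis). Of the 8 KO tumors 5 were below every WT tumor, the 4 with few osteoblast genes by the widest margin. As a log2 fold change the difference was −1.79 ± 0.71 (adjusted p = 0.146). Without the 6 tumors low in osteoblast genes it was −1.16 ± 0.37, at the edge of the threshold with edgeR (adjusted p = 0.0504) and past it with DESeq2 (−1.16, adjusted p = 0.0111, where DESeq2 called 21% of genes).

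*Cdh2* (chromosome 18, 16588877 to 16809246) fell into a high and a low set in both genotypes. In KO tumors it was 4.46 CPM in Massa, 219.6 in Medusa, 4.59 in Montana, 179 in Ohio, 2.24 in Prince, 213 in Grilka, 83.4 in Zelda and 8.67 in Oregon. In WT tumors it was 41.8 (N43 spine), 128 (N42 R pelvis), 7.26 (N215), 97.5 (N42 R femur), 126 (N42 L limb), 147 (N42 L shoulder), 8.33 (N25 lung) and 123 CPM (N43 pelvis). No tumor lay between 8.67 and 41.8 CPM, and the 6 tumors of the low set were the 6 with few osteoblast genes. In KO the 3 highest values were above every WT tumor and the 3 lowest below every WT tumor. The log2 fold change was 0.08 ± 0.88 (adjusted p = 0.972), with the opposite sign to the mean log2 CPM (4.78 in KO, 5.76 in WT), and without the 6 tumors it was 0.64 ± 0.36 (adjusted p = 0.238).

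*Vim* (chromosome 2, 13573927 to 13582826) encodes vimentin, the intermediate filament protein of mesenchymal cells, and was the most abundant of the 10. KO tumors ranged from 72.0 CPM in Prince to 1082 in Grilka with a median of 272, and WT tumors from 309 in N215 to 1046 in N43 spine with a median of 691. Of the KO tumors 5 were below every WT tumor and Grilka was above all of them. As a log2 fold change the difference was −0.72 ± 0.46 (adjusted p = 0.359). It was −1.53 (adjusted p = 0.0419) with total count scaling (3.68% of all genes called), under which all 10 genes were lower in KO tumors.

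Per kilobase of exon, *Vim* led in both groups, with a median of 146 CPM per kb in WT and 57.4 in KO tumors, and was above the next gene in 8 of 8 tumors of each group. In WT tumors *Prrx1* (46.7), *Cdh11* (41.9), *Snai1* (27.9) and *Twist1* (26.1) followed, then *Zeb2* (17.4), *Cdh2* (13.7), *Snai2* (10.01), *Zeb1* (8.32) and *Twist2* (0.413 CPM per kb). *Prrx1* was above *Cdh11* in only 2 of 8 and *Snai1* above *Twist1* in 4 of 8 WT tumors, so these neighbors did not separate. In KO tumors *Zeb2* (12.2), *Zeb1* (11.7), *Snai1* (11.6) and *Prrx1* (10.1 CPM per kb) followed *Vim*, each above the next in 4 or 5 of 8 tumors. *Cdh11*, *Snai2*, *Cdh2* and *Twist1* had medians of 5.58 to 6.995, and *Twist2* was last at 0.455 CPM per kb.

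Ratios within a library were compared next, because a ratio of 2 counts does not depend on how libraries are scaled. Counts were summed per mouse, 8 KO and 4 WT mice, and 5 ratios of paralogs or partners were tested with a two-sided exact permutation test over all splits of the 12 mice, adjusted over the 5. The log2 ratio of *Cdh11* over *Cdh2* was 0.91 ± 1.14 in KO and 3.23 ± 1.255 in WT mice (SD), a difference of −2.31 (p = 0.00808, adjusted p = 0.0404, exact permutation test). By mouse it was 1.38 in Massa, 0.23 in Medusa, 0.41 in Montana, 0.87 in Ohio, 3.48 in Prince, −0.14 in Grilka, 0.25 in Zelda and 0.84 in Oregon. In WT mice it was 2.60 in N43, 1.92 in N42, 4.81 in N215 and 3.57 in N25. Every WT mouse was thus above 7 of the 8 KO mice, and Prince was the exception.

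The difference in the cadherin ratio kept its sign without each mouse in turn (−2.75 to −1.78, exact permutation p = 0.00303 to 0.0242), but after adjustment over the 5 ratios only the fit without Prince passed. Massa rests on 6 and 2 counts. With each of the 16 tumors as a sample the difference was −1.77 (adjusted p = 0.0385, exact permutation test). In the 4 KO and 2 WT mice that were not low in osteoblast genes it was −1.96, with 0.30 ± 0.42 in KO and 2.26 ± 0.48 in WT mice (SD), and p = 0.0667 was the smallest that the 15 splits of that exact permutation test allow. In the tumors of these 6 mice *Cdh2* was 83.4 to 219.6 CPM in KO and 41.8 to 147 CPM in WT, and *Cdh11* was 99.1 to 327 CPM in KO and 323 to 717 CPM in WT.

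The other 4 ratios did not pass. *Snai2* over *Snai1* was 0.11 ± 0.99 in KO and −1.257 ± 1.09 in WT mice, a difference of 1.36 (adjusted p = 0.157, exact permutation test), and passed only with tumors as samples (1.25, adjusted p = 0.0385). *Zeb2* over *Zeb1* differed by −0.39 (adjusted p = 0.624), *Prrx1* over *Vim* by −0.63 (adjusted p = 0.624) and *Twist2* over *Twist1* by −0.55 (adjusted p = 0.766, all by exact permutation test). The sign of the Twist ratio depended on N215, without which it was 0.74.

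**Figure D3:**
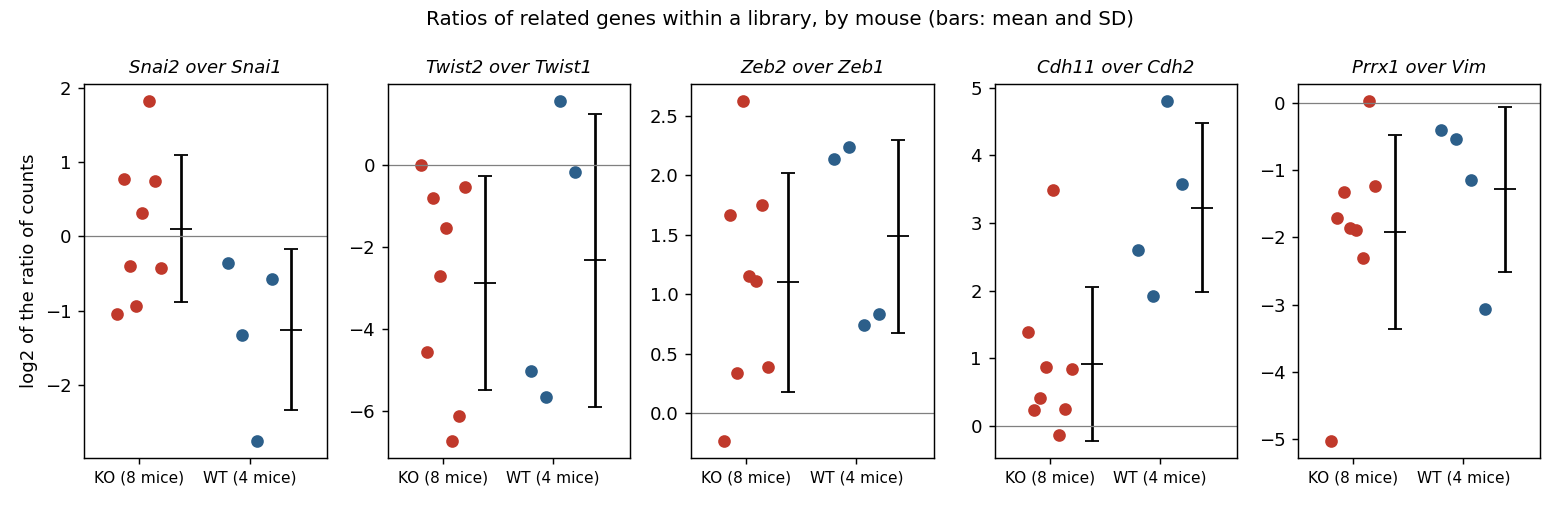
Log2 ratio of counts of related genes within a library (0.5 added to each count), 1 point a mouse, with mean and SD beside the points for 8 KO and 4 WT mice. The *Cdh11* over *Cdh2* ratio averages 0.91 in KO and 3.23 in WT mice, with Prince at 3.48 among the KO mice.

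The mesenchymal cadherins were then set beside 9 other cadherin genes of the table, per kilobase of exon. In 6 of 8 WT tumors *Cdh11* was the leading cadherin, with 41.3% to 72.4% of the summed level. These 6 were all tumors of mice N42 and N43, and tumors that share a mouse are counted separately here. In N215 and N25 the endothelial cadherin gene *Cdh5* led, with 49.6% and 47.0%, and in N25 *Cdh1* held 42.99%. In KO tumors *Cdh11* led only in Medusa (27.8%) and Ohio (42.7%), and *Cdh2* led in Grilka (35.5%). *Cdh5* led in Massa (52.7%), Montana (50.1%), Zelda (32.4%) and Oregon (49.4%), and *Cdh1* led in Prince (71.9%), the library with salivary gland genes. The muscle cadherin gene *Cdh15*, named here after its values were seen, held 7.05% to 27.1% in 6 KO tumors, 0 in Massa and Prince, and 0.0121% to 3.71% in WT tumors. Its level was 28.4 ± 23.6 CPM in KO and 6.28 ± 4.58 CPM in WT tumors (SD, n = 8 each), and the log2 fold change of 2.19 ± 0.93 did not pass (adjusted p = 0.170). Among the 4 of 7 listed other cadherins that were tested, none passed with edgeR or DESeq2 (*Cdh15* alone at an unadjusted p under 0.05). *Cdh5* differed by −0.48 (adjusted p = 0.517) and *Cdh13* by 0.28 (adjusted p = 0.851).

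**Figure D4:**
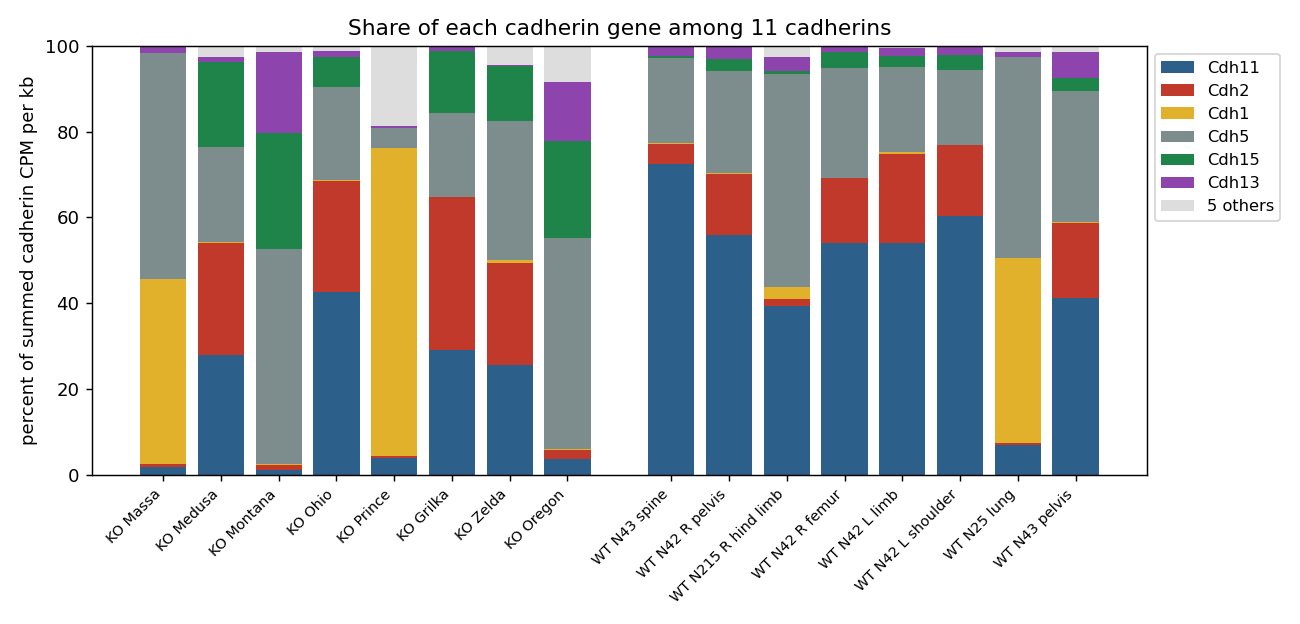
Share of each gene in the summed level of 11 cadherin genes (CPM per kilobase of exon), 1 bar a tumor, KO on the left and WT on the right. *Cdh11* is the largest share in 6 of 8 WT tumors (all from mice N42 and N43) and in 2 of 8 KO tumors, and *Cdh1* is visible in Massa, Prince, N215 and N25.

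Levels of the 10 genes were set beside osteoblast, macrophage and skeletal muscle scores within the 8 KO tumors (mean log2 CPM of 12 genes each). The KO tumors were divided by their summed osteoblast level into a high and a low set. The score was 4.94 to 6.9998 in the high set (Medusa, Ohio, Grilka, Zelda). In the low set (Massa, Montana, Prince, Oregon) it was 0.85 to 3.59. The score was graded, with Oregon at 3.59 and Zelda at 4.94 next to the division. Over all 8, *Cdh2* (r = 0.98, adjusted p = 0.00818) and *Zeb2* (r = 0.92, adjusted p = 0.00893, exact permutation) passed, and no other of the 10 genes did. All 4 tumors of the low set also held genes of another tissue, and the relation cannot be tested within 4 tumors. *Cdh2* was 83.4 to 219.6 CPM in the high set and 2.24 to 8.67 in the low set. *Cdh11* was 99.1 to 327 CPM and 6.12 to 25.5. *Zeb2* was 299 to 547 CPM and 57.3 to 189.6. *Twist1* was 11.8 to 71.2 CPM and 0 to 6.38. *Prrx1* did not follow this split, with 110.7 and 113 CPM in Montana and Oregon against 71.9 in Ohio. Nor did *Zeb1*, whose highest value on the TMM scale was in Massa. With the macrophage and skeletal muscle scores, 0 of the 20 relations passed after adjustment over all 30 relations (exact permutation over all pairings), and 1 did before it, *Twist1* with the macrophage score (r = 0.80, p = 0.0494, rho = 0.74, p = 0.0458, adjusted p = 0.217; r = 0.45 without the 2 tumors farthest from the median score).

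**Figure D5:**
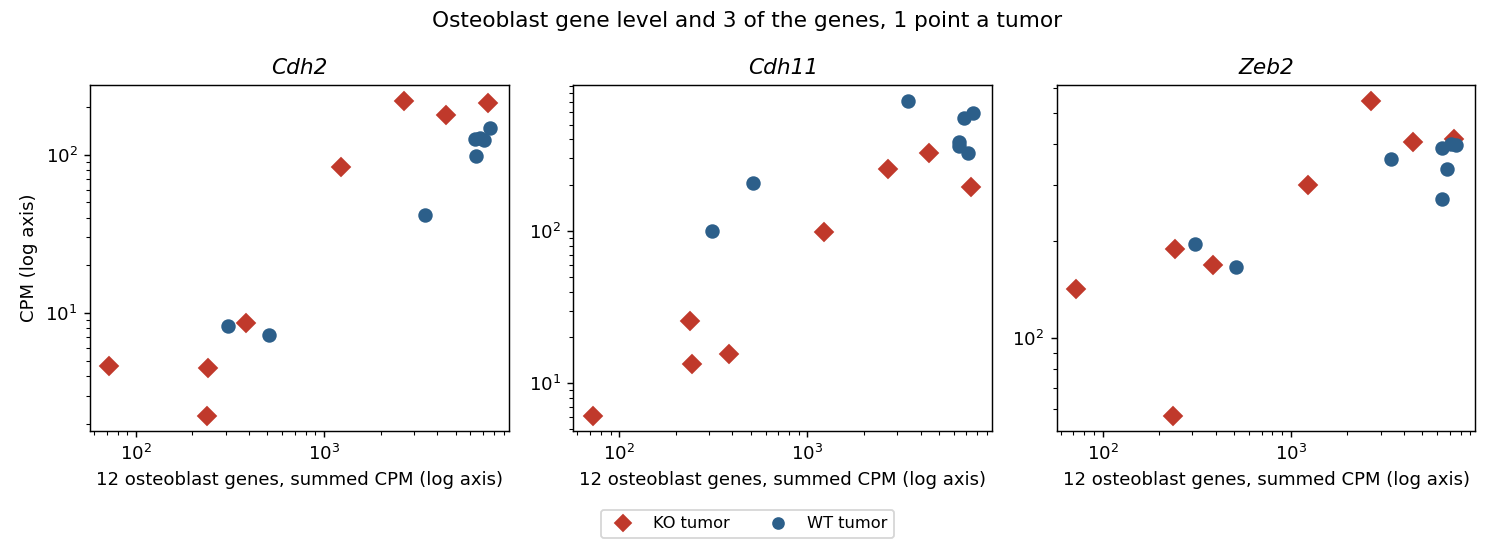
CPM of *Cdh2*, *Cdh11* and *Zeb2* against the summed CPM of 12 osteoblast genes (both axes log), 1 point a tumor. The 6 tumors at or under 512 CPM of osteoblast genes have *Cdh2* at 8.67 CPM or less, and KO tumors above 1228 CPM of osteoblast genes have *Cdh2* at or above 83.4 CPM and *Cdh11* at or under 327 CPM.

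Among WT bone tumors, 3 of spine or pelvis (mice N42 and N43) were compared with 4 of limb or shoulder (N42 and N215). With edgeR 0 of 17131 genes passed (0%; 641 at an unadjusted p under 0.05, 3.74%) and with DESeq2 31 (0.166%), none of the 10 among them, and none of the 10 had an unadjusted p under 0.05 with edgeR. *Prrx1* was 756, 559 and 475 CPM at spine and pelvis and 139.8, 372, 609 and 687 CPM at limb and shoulder, a difference of 0.41 ± 0.52 (adjusted p = 0.978). *Cdh11* differed by 0.47 ± 0.43 (adjusted p = 0.974) and *Twist1* by −0.11 ± 0.49 (adjusted p = 0.997). The widest value, −3.93 ± 2.15 for *Twist2* (adjusted p = 0.974), came from N215 and was 0.49 without it. Within mouse N42 alone the 4 tumors differed 1.36-fold for *Zeb1*, 1.51-fold for *Cdh2*, 1.63-fold for *Cdh11*, 1.85-fold for *Prrx1* and 2.63-fold for *Snai1* between the highest and the lowest.

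Other genes of the EMT program were read from fixed lists. Of 17 mesenchymal matrix and surface genes 15 were lower in KO tumors in sign, and the median difference was −1.25 on the log2 scale (0.10 for all genes tested), and 4 passed the threshold, all lower (2.15% of all genes were called lower). *Tgfbi*, a TGF-beta induced matrix protein, fell from 142 ± 34.3 to 42.3 ± 16.04 CPM (SD, n = 8; −1.75 ± 0.25, adjusted p = 0.00201). *Loxl2*, a collagen cross-linking oxidase, fell from 130.4 ± 89.9 to 18.2 ± 13.6 CPM (−2.85 ± 0.54, adjusted p = 0.0112). *Postn*, the matrix protein periostin, fell from 2159 ± 2223 to 232 ± 258 CPM (−3.22 ± 0.76, adjusted p = 0.0261). *S100a4*, a calcium binding protein of fibroblasts and macrophages, fell from 59.9 ± 32.2 to 16.8 ± 9.45 CPM (−1.84 ± 0.47, adjusted p = 0.0372). The other 13 did not pass, among them fibronectin (*Fn1*, −2.55 ± 0.73, adjusted p = 0.0558) and *Sparc* (−2.13 ± 0.71, adjusted p = 0.0881), and *Acta2* and *Tagln* were the 2 with the higher level in KO in sign.

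With counts summed per mouse none of the 17 passed, and *Tgfbi* was −1.54 (adjusted p = 0.160). Without the 4 tumors of N42 none passed either, while without the 6 tumors low in osteoblast genes 9 passed, all lower (7.36% of all genes were called lower there). Limma-voom with the mouse as random effect called 1 of the 17 lower, *Tgfbi* (−1.64, adjusted p = 0.0356). In that fit 17 of 15413 genes passed. Macrophage genes moved in the same direction: all 12 of the list were lower in sign and 8 passed with edgeR, with a median of −1.97. None of the 12 passed with counts summed per mouse, without N42 or by limma-voom with the mouse as random effect. Their summed level was 429 to 2065 CPM in KO and 774 to 2723 CPM in WT tumors, and the macrophage genes *C1qb*, *C1qc* and *Cd163* were at 0 in Massa and in no other tumor. *Mrc1*, the mannose receptor gene, was −2.33 ± 0.39 (adjusted p = 0.00530, but 0.266 with counts summed per mouse and 0.299 without N42) and *Lyz2* −0.99 ± 0.69 (adjusted p = 0.414). Of 12 osteoblast genes 8 were lower in sign (median −0.76) and none passed with edgeR, 4 had an unadjusted p under 0.05, and DESeq2 called 4 lower. *Spp1* was −2.95 ± 0.96 (adjusted p = 0.0826) and *Ibsp* −0.68 ± 1.21 (adjusted p = 0.781). The part of macrophage and osteoblast content in these differences was not tested.

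The other cell type lists gave no call with edgeR. All 12 skeletal muscle genes were higher in KO in sign (median 3.61, 2 at an unadjusted p under 0.05, *Myh4* 4.08 ± 2.25, adjusted p = 0.286, *Atp2a1* 3.56 ± 1.96, adjusted p = 0.284). Only Montana and Oregon were above every WT tumor in their summed level, and the group median was lower in KO (154 CPM) than in WT tumors (1945 CPM). Endothelial genes had a median of −0.28 (*Cdh5* above, *Vwf* −0.87 ± 0.93, adjusted p = 0.615), proliferation genes of −0.48 (*Mki67* 1.503 ± 0.91, adjusted p = 0.335, *Top2a* 0.19 ± 0.87, adjusted p = 0.926), cartilage genes of −0.14 (*Col2a1* −0.49 ± 1.37, *Acan* 1.34 ± 1.21) and erythroid genes of −0.20 (*Slc4a1* 1.40 ± 1.69, *Hbb-bs* −0.20 ± 1.29). At an unadjusted p under 0.05 stood 1 cartilage and 1 salivary gland gene and no endothelial, proliferation, erythroid, epithelial or lung gene. DESeq2 called 1 cartilage gene higher and 1 lower, 5 epithelial and 2 salivary gland genes higher and 1 lung and 1 erythroid gene lower. Of the epithelial, lung, salivary gland and liver lists at most 2 genes each passed the filter of edgeR, and *Scgb1a1* and *Sftpc*, *Prol1* and *Bpifa2*, and *Alb* and *Fgb* were not tested.

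Of 12 further EMT factors edgeR tested 10 and 1 passed (4.01% of all genes), while DESeq2 called 1 higher and 2 lower (12.5% of all genes). The gene that passed with edgeR was *Hmga2*, a chromatin protein of embryonic mesenchyme that is often active in sarcomas. It was 0 to 2.58 CPM in KO tumors and 59.7 (N43 spine), 15.02 (N42 R pelvis), 85.4 (N215), 2.10 (N42 R femur), 59.4 (N42 L limb), 4.72 (N42 L shoulder), 6.00 (N25 lung) and 2.41 CPM (N43 pelvis) in WT tumors. Within N42 it ranged from 2.10 to 59.4 CPM, and the KO tumor Ohio overlapped the 2 lowest WT tumors. The log2 fold change was −5.34 ± 1.03 (adjusted p = 0.0114), and −5.58 (adjusted p = 0.0617) with counts summed per mouse. By limma-voom with the mouse as random effect it was −4.66 (adjusted p = 0.559). The bHLH partners of Twist proteins, *Tcf4* (−0.62 ± 0.22, adjusted p = 0.0994) and *Tcf12* (−0.34 ± 0.22, adjusted p = 0.359), did not pass.

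Epithelial genes were low in most tumors. Of 16 junction and keratin genes only 4 passed the filter on low counts and none the threshold with edgeR (0 at an unadjusted p under 0.05), whereas DESeq2 called 9 higher in KO (7.76% of all genes). Without WT N215 and N25 edgeR called all 4 tested higher in KO (5.41% of all genes). N25 and N215 had the highest sums of 8 epithelial markers in WT (719 and 27.6 CPM, at most 3.46 in the others). The KO tumors Massa and Prince, which held lung or salivary gland genes, stayed in that fit. It therefore cannot tell genotype from the choice of libraries. *Dsp* was 93.0 ± 219 CPM in KO and 21.3 ± 38.1 CPM in WT tumors, with 628 CPM in 1 KO tumor, and *Krt7* was 92.0 ± 169 and 15.5 ± 39.4 CPM (SD, n = 8 each). The 8 epithelial markers, *Cdh1* and *Krt18* (2.48 ± 1.68, adjusted p = 0.397) among them, summed to 1481 CPM in Prince, 719 in N25 and 509 in Massa, and to at most 28.2 CPM in the other 13 tumors. *Cdh1* was 238 CPM in Prince, 158 in Massa, 322 in N25 and at most 7.49 elsewhere, and these 3 tumors also held salivary gland or lung genes. None of the 7 factors that oppose EMT passed the filter of edgeR, and DESeq2 called 2 of them higher in KO. *Esrp1* and *Esrp2* reached 249 and 96.8 CPM in the KO and 39.6 and 45.3 CPM in the WT tumor with the highest value. None of 5 catenin genes, whose proteins tie cadherins to actin, passed with edgeR (1 at an unadjusted p under 0.05, 1 higher with DESeq2). *Ctnnb1* was −0.04 ± 0.30 (adjusted p = 0.951) and *Ctnna1* 0.12 ± 0.33 (adjusted p = 0.862). None of 5 filament and lamina partners of vimentin passed with edgeR either (2 at an unadjusted p under 0.05, 1 higher and 1 lower with DESeq2). *Plec*, a cytoskeletal linker, was 0.93 ± 0.49 (adjusted p = 0.264) and *Des*, the muscle filament gene, 2.72 ± 1.29 (adjusted p = 0.217).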

How the data were processed

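RNA of 16 mouse osteosarcomas was extracted, depleted of ribosomal RNA and sequenced as single-end Illumina reads. The authors aligned reads to mm10 with Novoalign 2.08.01, kept the best of several alignments per read, counted reads over Ensembl genes with USeq and ran DESeq2 1.26.0, and the deposited values used here are raw counts per gene. The strand is not given in the sources used here. Genes under 6 counts in total are not in the table. Total counts ranged from 1109487 to 16962329, and p-values measure the spread between tumors, of which several WT tumors share a mouse.

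Counts were fitted with edgeR 4.0.16 in R 4.3.3 (TMM, filterByExpr with a minimum of 10 counts and a total of 15, quasi-likelihood test, Benjamini-Hochberg threshold 0.05), KO against WT, without covariates, and the SE is the size of the log2 fold change over the root of F. Log2 CPM used a prior count of 2. Ratios used exact permutation of mice in Python (scipy 1.17.1) with 0.5 added to counts. DESeq2 1.42.0 and limma 3.58.1 were alternatives, with other scalings, filters and left-out libraries. Leaving out the tumors low in osteoblast genes (12 genes summed under 1000 CPM) or N215 and N25, DESeq2 on counts summed per mouse and the fit without shallow and mixed-tissue libraries were chosen after seeing the data. The edgeR and DESeq2 tests were checked on simulated counts of independent tumors. That simulation held no shared mice and no mixed tissue, so it does not check the p-values for either.

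Positions come from GENCODE vM21 (GRCm38), in which 24997 genes of the table (99.77%) were found by identifier. The 10 genes and all lists were chosen with earlier results of these data known. Named beside them were the 2 genes most like each over 12 mice, of each pathway list the genes past the threshold (at most 4) or else the 2 most abundant, the 3 floxed genes, and the 2 most abundant of each cell type list. The other genes named were chosen after their values were seen, and some results are not reported here.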

Additional observations from a re-analysis of the deposited data

Results flagged for a closer look

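Log2 CPM of the 10 genes was checked for a tumor far from the others of its group (KO, WT and the 4 tumors of N42), 30 groups of values in all, and 4 were past Dixon's limit, where chance alone flags about 1 in 20 groups. *Twist1* had its lowest KO value in Massa (−2.56, 0 counts in the shallowest library) and its lowest WT value in N25 (0.94), the tumor labeled lung, and both tumors were high in lung genes. *Twist2* had its highest WT value in N215 (6.65). There the skeletal muscle and lung lists were not above the range of the other WT tumors. The epithelial list (27.6 CPM) was above every other WT tumor but N25. *Zeb1* had its highest N42 value in the R pelvis tumor (6.49), above 3 tumors that lay within 6.05 to 6.09.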

How the results depend on the processing

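No paired analysis was possible because the KO and WT groups share no mice. The count of genes called was 618 (287 higher and 331 lower). It was 2517 with DESeq2 and 17 with limma-voom, which took the mouse as random effect. With counts summed per mouse it was 10 and (DESeq2) 283, and without N42 it was 8. It was 1518 without N215 and N25, and 2674 and (DESeq2) 4129 without the tumors low in osteoblast genes. With log2 total count as covariate it was 99. It ranged from 252 to 1348 when 1 tumor was left out: 1348 without Zelda, 964 without Massa, 923 without N215, 903 without N25 and 329 without Oregon. It was 267, 280, 329 and 252 without the N42 R pelvis, R femur, L limb and L shoulder, and 296 and 371 without the N43 spine and pelvis tumors. With total counts alone 72 of 567 were higher, as this scaling lowered the median of all genes by 0.43. Of the 10 genes, 0 were called, but 1 with DESeq2, 2 with total counts alone, 1 without N215 and N25, 1 and (DESeq2) 2 without the tumors low in osteoblast genes, and 0 to 1 when 1 tumor was left out (*Prrx1*, without Zelda, N215 or N25).

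Signs turned, with no call on either side, for *Snai2* (−0.11 with total counts alone, −0.11 without Massa and Grilka, −0.88 with the covariate, −0.11 to 0.86 over left-out tumors), *Twist2* (0.38 with DESeq2, 0.47 without N215 and N25, −3.15 to 0.44 over left-out tumors) and *Zeb1* (−0.14 with total counts alone, −0.50 with the covariate). *Zeb2* turned to 0.086 and (DESeq2) 0.077 with counts summed per mouse, 0.022 without N42, 0.22 without Prince, Oregon and Montana, 0.56 with Medusa and Ohio alone, 0.38 without the shallow and mixed-tissue libraries, and 0.21 and (DESeq2) 0.22 without the tumors low in osteoblast genes. *Cdh2* turned to −0.14 with limma-voom, −0.28 with total counts alone, −0.075 without Massa and Grilka and −0.26 without N215 and N25 (−0.28 to 0.26 over left-out tumors). The filter of at least 30 counts in 8 tumors left no value for *Twist2*. *Snai1*, *Twist1*, *Prrx1*, *Cdh11* and *Vim* were lower in KO in all 34 alternatives. The causes were not tested.

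Between WT sites DESeq2 called 31 genes against 0. With the mouse as a block *Snai2* was −0.054 and *Zeb2* −0.066, and over left-out tumors *Twist1* ranged from −0.79 to 0.18, *Twist2* from −4.58 to 0.49 and *Cdh2* from −0.33 to 0.42. Among ratios, *Snai2* over *Snai1* passed with tumors as samples (1.25), *Twist2* over *Twist1* turned to 1.58 with tumors as samples, 0.15 with 5 counts added and 0.31 without the mice low in osteoblast genes (−1.67 to 0.74 over left-out mice), and *Cdh11* over *Cdh2* lost its call without the mice low in osteoblast genes (−1.96) and when any 1 mouse but Prince was left out (−2.75 to −1.78).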

Other observations

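For the 10 genes, the other tested genes with the most similar log2 CPM over the 12 mice (Pearson r, given as a description, with no test, over libraries that also differ in tissue content and depth) were as follows. *Cdh2* ran with *Oxct2a* (r = 0.97) and *Cdh11* with *Tmem119* (0.96) and *Prdm1* (0.96). *Zeb2* ran with *Col1a1* (0.94), the main collagen gene of bone, and *Fat3* (0.94). *Twist1* ran with *Alx4* (0.97), a homeobox gene of skull and limb, and *Scara3* (0.97), and *Prrx1* with *Ifi207* (0.94) and *Mmp2* (0.93), a matrix protease gene. *Snai1* ran with *Lif* (0.93), a cytokine gene, and *Efemp2* (0.92). *Snai2* ran with *Zfp830* (0.94) and *BC085271* (0.92), *Twist2* with *Sned1* (0.94) and *B830012L14Rik* (0.93), *Zeb1* with *Gng11* (0.95) and *Hmgb1* (0.89), and *Vim* with *S100a10* (0.92) and *Slc22a15* (0.90).

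Among the 10 genes themselves, *Zeb2* and *Cdh2* were the most alike over the 12 mice (r = 0.93), followed by *Twist1* and *Prrx1* (0.83), and *Snai2* and *Twist2* the least (−0.51). The paralogs *Zeb1* and *Zeb2* had r = 0.50, *Snai1* and *Snai2* 0.62 and *Twist1* and *Twist2* 0.28.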
